A study of Mus musculus with 8 samples.

Results

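The genes described here are 10 established transcriptional targets of p53: Cdkn1a, Mdm2, Ccng1, Bax, Bbc3, Eda2r, Phlda3, Trp53inp1, Sesn1 and Zmat3. They were taken by exact symbol from the deposited table of mouse ventricle RNA sequencing, which holds 24341 genes, and all 10 were found. The Pos Cre group has 4 libraries from Med13/13L fl/fl mice that carry Cre, so that cardiomyocytes are meant to lose Med13 and Med13l, a pair of paralogous subunits of the Mediator kinase module. The Neg Cre group has 4 libraries from Med13/13L fl/fl mice without Cre. All mice of both groups were male, 12 weeks old and given tamoxifen chow, and tissue was taken 4 weeks after tamoxifen. Cre is present in one group only, and no library has Cre without the floxed alleles, so Cre activity and loss of the genes cannot be told apart. The labels name neither the Cre line nor its promoter, and the tissue is a lysate of whole ventricle, not of sorted cardiomyocytes. In such bulk tissue, fewer cells of a type and less RNA per cell cannot be told apart.

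p53 is a transcription factor that is kept scarce by the ubiquitin ligase Mdm2 and becomes stable when DNA is damaged or when other stress signals arrive. It binds response elements in DNA made of a pair of short repeats and switches on genes that stop the cell cycle, start apoptosis, repair DNA and adjust metabolism. Several of its targets, Mdm2 among them, act back on p53 itself. Adult cardiomyocytes rarely divide, and in the heart p53 is mostly studied for its part in cell death, metabolism and the response to overload and to anthracycline drugs.

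RefSeq promoter windows (GRCm38.p6), reaching from 250 bases before the annotated start to 50 after it, were on hand for 8 of the 10 genes. These 8 genes have 12 windows, since Bbc3, Cdkn1a and Sesn1 have several annotated starts. No window was matched for Zmat3 or Trp53inp1. Each window was compared with the 20-base consensus of the p53 response element, taken with no spacer between its repeats. That consensus is its own reverse complement, so 1 search covers both strands. The 4 stretches printed next come from the genes of cell cycle control and apoptosis whose windows came nearest to the consensus, and 2 of these genes, Cdkn1a and Ccng1, differed between the groups in opposite directions. Each is written 5′ to 3′ on the strand of its gene and reaches from 250 to 31 bases before the start, and capitals mark the 20 bases nearest to the consensus.
Cdkn1a (chr17:29090729-29090948, plus strand): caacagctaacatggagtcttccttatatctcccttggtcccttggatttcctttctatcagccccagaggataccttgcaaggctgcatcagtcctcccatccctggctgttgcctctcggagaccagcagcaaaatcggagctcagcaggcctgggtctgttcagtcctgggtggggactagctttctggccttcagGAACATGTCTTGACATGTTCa
Ccng1 (chr11:40755317-40755536, minus strand): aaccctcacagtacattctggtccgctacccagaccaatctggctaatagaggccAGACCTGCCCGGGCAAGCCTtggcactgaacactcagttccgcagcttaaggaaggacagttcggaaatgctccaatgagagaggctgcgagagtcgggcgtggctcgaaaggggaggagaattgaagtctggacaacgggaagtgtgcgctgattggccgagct
Bax (chr7:45466929-45467148, minus strand): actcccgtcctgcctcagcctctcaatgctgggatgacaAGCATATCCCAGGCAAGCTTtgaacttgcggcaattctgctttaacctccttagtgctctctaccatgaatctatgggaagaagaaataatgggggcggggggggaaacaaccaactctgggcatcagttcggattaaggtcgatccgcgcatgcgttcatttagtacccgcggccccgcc
Bbc3 (chr7:16309333-16309552, plus strand): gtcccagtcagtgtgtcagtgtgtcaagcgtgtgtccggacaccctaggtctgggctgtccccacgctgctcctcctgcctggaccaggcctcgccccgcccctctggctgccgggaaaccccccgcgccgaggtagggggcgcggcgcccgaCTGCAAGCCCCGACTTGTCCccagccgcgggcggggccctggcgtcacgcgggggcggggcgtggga

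Cdkn1a matched 19 of 20 positions, from -51 to -32 relative to the more upstream of its annotated starts (chr17:29090928-29090947). Ccng1 also matched 19 of 20 positions, from -195 to -176 relative to its start (chr11:40755462-40755481). Among all 32851 windows of the RefSeq table, 29 windows, or 0.0883%, held a stretch matching 19 or more positions. Bax, the first window of Bbc3 and the second window of Sesn1 matched 17 positions at best, which 6.29% of all windows did or exceeded. The best stretch matched 15 positions in Mdm2 and Phlda3, as in 76.6% or more of all windows, and 14 in Eda2r. These matches describe letters in a short window only.

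In Pos Cre ventricles 6 of the 10 genes were higher than in Neg Cre ventricles, namely Cdkn1a, Phlda3, Eda2r, Bax, Zmat3 and Bbc3. Ccng1 and Sesn1 were lower, and Mdm2 and Trp53inp1 passed the test in neither direction. Levels are FPKM, fragments per kilobase of transcript per 1e+06 mapped fragments. Changes are differences of log2(FPKM + 1), Pos Cre minus Neg Cre, from limma, and a gene was called at a Benjamini-Hochberg adjusted p under 0.05 over all 11688 genes with a mean of 1 FPKM or more, a filter that all 10 genes passed. Against the 6 of 10 called higher and the 2 of 10 called lower, 19.7% of all genes tested were called higher and 19.4% were called lower. Of all calls 50.4% were higher, against 84.4% when libraries were scaled to the same summed FPKM. Under that scaling 7 of the 10 genes were called higher and 2 lower, beside 5432 higher and 1004 lower of all 11700 genes tested. Without that scaling the median log2 change was 0.45 over the 10 genes and -0.01 over all genes tested. The groups did not overlap for the same 8 genes that were called, while 19.3% of all genes stood wholly higher and 18.7% wholly lower in Pos Cre libraries.

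**Figure D1:**
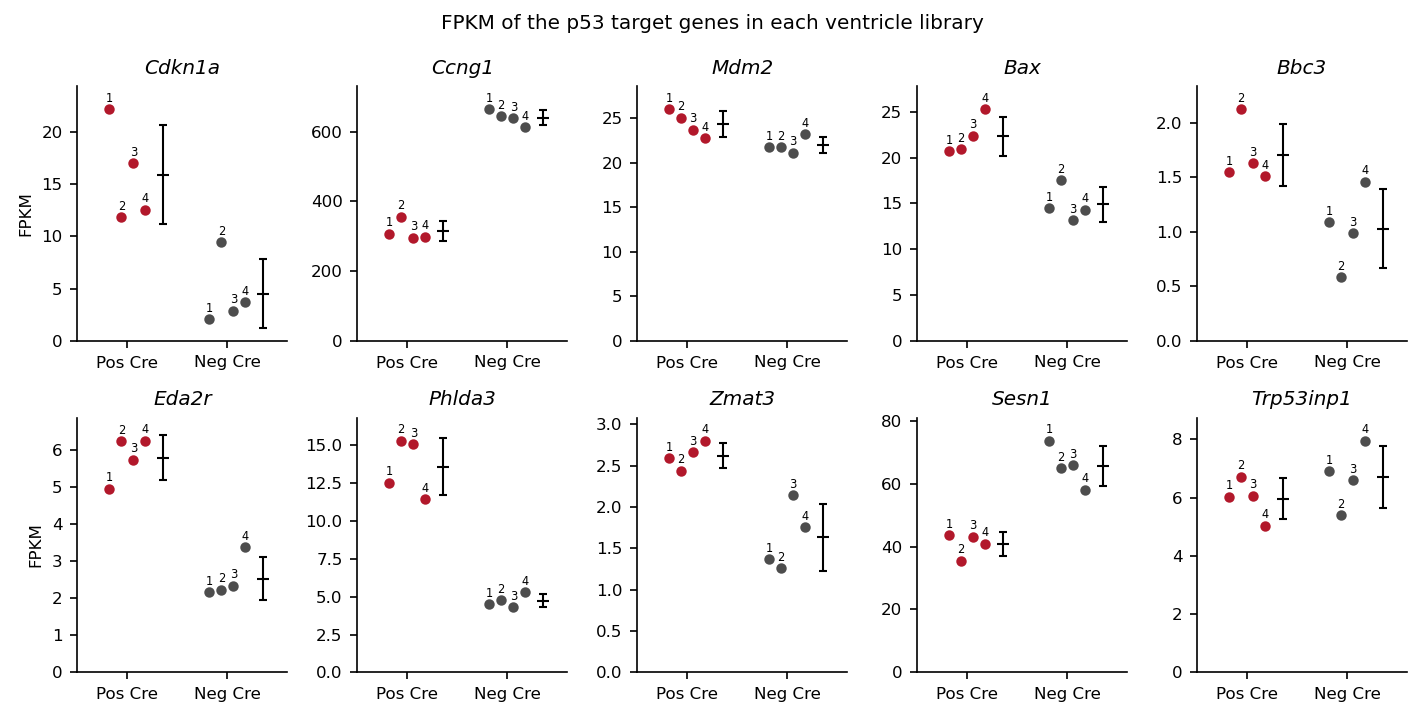
FPKM of each p53 target gene in the 4 Pos Cre libraries (red) and the 4 Neg Cre libraries (grey), each on its own axis from 0; numbers on points are replicates, and bars show the mean and SD. Ccng1 and Sesn1 stand lower in every Pos Cre library, Mdm2 and Trp53inp1 overlap, and the Neg Cre library 2 has the highest Cdkn1a of its group at 9.42 FPKM.

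Cdkn1a encodes p21, the inhibitor of cyclin-dependent kinases through which p53 arrests the cell cycle (chromosome 17, 29090986 to 29100722, mm10). It had 22.15, 11.9, 16.98 and 12.5 FPKM in Pos Cre libraries 1 to 4, against 2.11, 9.42, 2.88 and 3.69 FPKM in Neg Cre libraries 1 to 4. Every Pos Cre library was above every Neg Cre library, but Neg Cre library 2 came close to Pos Cre library 2. The mean was 15.9 ± 4.75 FPKM in Pos Cre and 4.53 ± 3.33 FPKM in Neg Cre ventricles (SD, n = 4 each), a ratio of 3.51. Its log2 change of 1.73 ± 0.33 (SE) was larger than the spread between replicates (limma adjusted p = 0.00219) and larger than that of 99.3% of the genes tested. Without Neg Cre library 2 the log2 change was 2.09 (limma adjusted p = 5.45e-05).

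Ccng1 encodes cyclin G1, which brings the phosphatase PP2A to Mdm2 and so acts back on p53 (chromosome 11, 40748552 to 40755286). It was by far the most abundant of the 10 transcripts. It had 307.9, 356.6, 296.4 and 298.6 FPKM in Pos Cre libraries, against 664.5, 644.2, 638.0 and 612.9 FPKM in Neg Cre libraries. The groups lay far apart, with each Pos Cre library well below each Neg Cre library. Means were 314.9 ± 28.3 FPKM in Pos Cre and 639.9 ± 21.3 FPKM in Neg Cre ventricles (SD, n = 4 each), and the log2 change was -1.02 ± 0.08 (SE, limma adjusted p = 6.85e-06). Ccng1 made up 68.3% to 73.9% of the summed FPKM of the 10 genes in Pos Cre libraries and 83.4% to 84.2% in Neg Cre libraries. That sum was therefore lower in Pos Cre libraries, at 427.1 to 482.8 FPKM, than in Neg Cre libraries, at 732.1 to 792.6 FPKM. Without Ccng1 the summed FPKM of the other genes overlapped, at 126.2 to 140.1 in Pos Cre and 119.2 to 128.1 in Neg Cre libraries.

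Mdm2 encodes the ubiquitin ligase that marks p53 for destruction and is itself a p53 target, the core of the negative feedback loop (chromosome 10, 117688875 to 117710758). It had 26.0, 25.05, 23.7 and 22.7 FPKM in Pos Cre libraries, against 21.7, 21.8, 21.1 and 23.2 FPKM in Neg Cre libraries. Pos Cre library 4 lay below Neg Cre library 4, so the groups overlapped by this pair. The log2 change of 0.14 ± 0.07 (SE) was not called (limma adjusted p = 0.145), and its 95% interval ran from -0.02 to 0.30. Mdm2 was called higher, with a log2 change of 0.45, when libraries were scaled to the same summed FPKM (limma adjusted p = 0.000768). Under that scaling the median over all genes tested was 0.26 on the same scale.

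Bax encodes the protein that forms pores in the outer mitochondrial membrane (chromosome 7, 45461695 to 45466898). It had 20.7, 20.9, 22.4 and 25.3 FPKM in Pos Cre libraries, against 14.5, 17.6, 13.2 and 14.3 FPKM in Neg Cre libraries. The groups did not overlap, and Neg Cre library 2 was again the highest of its group. The log2 change of Bax was 0.56 ± 0.10 (SE, limma adjusted p = 0.00157). Bbc3 encodes PUMA, a BH3-only protein that frees Bax from its inhibitors (chromosome 7, 16309583 to 16318334). It was the scarcest of the 10 transcripts, with 1.55, 2.13, 1.63 and 1.51 FPKM in Pos Cre libraries, against 1.09, 0.582, 0.987 and 1.46 FPKM in Neg Cre libraries. The groups were separated by only the small gap between Pos Cre library 4 and Neg Cre library 4. These levels rest on an estimated 9.84 to 69.4 fragments per library on the longest coding transcript of Bbc3. That is an upper estimate, since its coding transcripts run from 405 to 1814 bases and a shorter one would give fewer fragments. Its log2 change was 0.43 ± 0.15 (SE) with a limma adjusted p of 0.0407, and the call was lost in 12 of the 20 other ways of processing, with adjusted p up to 0.167.

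Eda2r encodes a receptor of the tumour necrosis factor receptor family that binds the ligand ectodysplasin A2 (chromosome X, 97333841 to 97377209). It had 4.96, 6.26, 5.74 and 6.26 FPKM in Pos Cre libraries, against 2.17, 2.23, 2.34 and 3.39 FPKM in Neg Cre libraries. All Pos Cre libraries were above the highest Neg Cre library, library 4, which stood apart from the rest of its group. The log2 change of Eda2r was 0.95 ± 0.12 (SE, limma adjusted p = 0.000167). Phlda3 encodes a small pleckstrin homology domain protein that competes with the kinase Akt for membrane lipids and so restrains its survival signal (chromosome 1, 135766085 to 135769134). It had 12.5, 15.3, 15.1 and 11.45 FPKM in Pos Cre libraries, against 4.52, 4.78, 4.33 and 5.29 FPKM in Neg Cre libraries. The groups lay far apart, and the ratio of the means was 2.87. With a log2 change of 1.34 ± 0.11 (SE), Phlda3 had the lowest adjusted p of the 6 genes called higher (limma adjusted p = 7.08e-06).

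Zmat3 encodes a zinc finger protein that binds RNA and acts on splicing and on messenger RNA stability (chromosome 3, 32334794 to 32367438). It had 2.59, 2.44, 2.66 and 2.80 FPKM in Pos Cre libraries, against 1.37, 1.26, 2.15 and 1.76 FPKM in Neg Cre libraries. The groups did not overlap, and Pos Cre libraries varied less, with an SD of 0.151 FPKM against 0.402 FPKM in Neg Cre libraries. The log2 change of Zmat3 was 0.47 ± 0.12 (SE, limma adjusted p = 0.0104).

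Sesn1 encodes sestrin 1, a stress protein that limits the growth kinase complex mTORC1 and lowers peroxides (chromosome 10, 41810574 to 41908436). It had 43.6, 35.5, 43.2 and 40.9 FPKM in Pos Cre libraries, against 73.6, 64.9, 65.8 and 58.1 FPKM in Neg Cre libraries. Each Pos Cre library was below each Neg Cre library, and the log2 change was -0.67 ± 0.09 (SE, limma adjusted p = 0.000294). Trp53inp1 encodes a stress protein that works in autophagy and helps p53 towards its proapoptotic targets (chromosome 4, 11156441 to 11174377). It had 6.03, 6.73, 6.07 and 5.04 FPKM in Pos Cre libraries, against 6.91, 5.39, 6.60 and 7.96 FPKM in Neg Cre libraries, and the groups overlapped widely. Its log2 change of -0.14 ± 0.12 (SE) was not called (limma adjusted p = 0.373), with a 95% interval from -0.40 to 0.12, and its sign turned under 2 other ways of processing. Annotated genes outside the table overlap parts of the loci of Cdkn1a (on the opposite strand), Bax and Sesn1 (both on the same strand), so fragments there could be divided or shared.

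**Figure D2:**
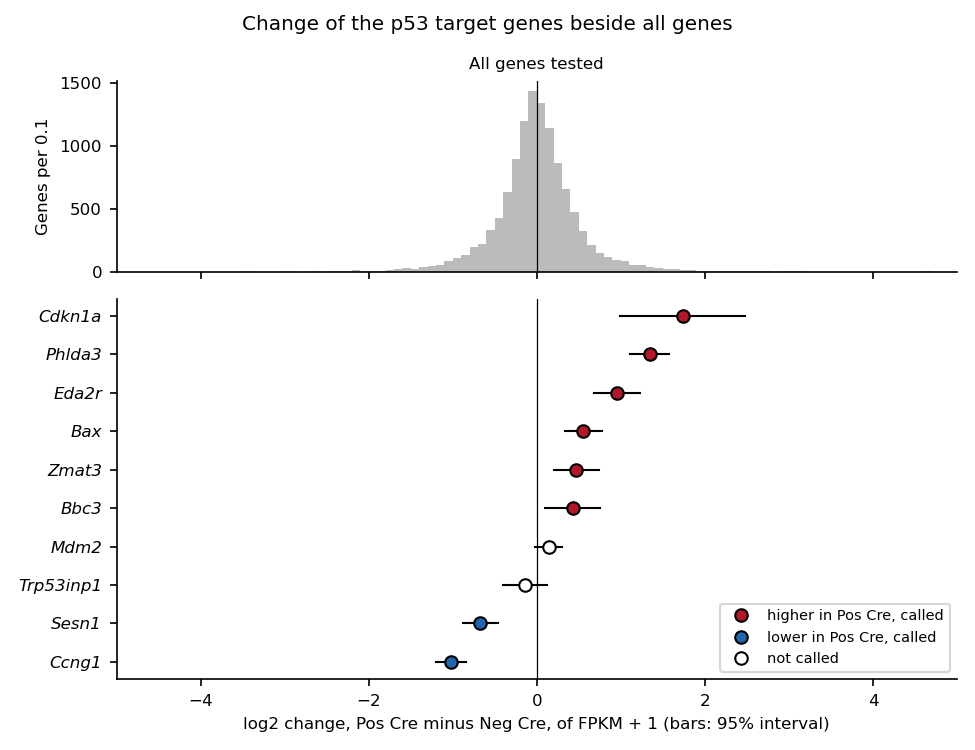
Upper panel: number of genes per 0.1 of log2 change for all 11688 genes tested. Lower panel: log2 change of FPKM + 1, Pos Cre minus Neg Cre, of each p53 target gene with its 95% interval, filled red or blue where called at a limma adjusted p under 0.05; 6 genes lie to the right, Ccng1 at -1.02 and Sesn1 at -0.67 to the left, and the intervals of Mdm2 and Trp53inp1 cross 0.

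Estimated depth was 4.47 to 23.4 times 1e+06 fragments in Pos Cre and 5.495 to 15.3 times 1e+06 in Neg Cre libraries. The libraries also fell into 5 with 395.8 to 1053 FPKM of the ribosomal precursor Rn45s (Pos Cre 1 and 2, Neg Cre 1, 3 and 4) and 3 with 10.25 to 15.98 FPKM (Pos Cre 3 and 4, Neg Cre 2), and the comparison was repeated within each set. The 3 low libraries were also the deepest, at 15.3 to 23.4 times 1e+06 fragments, against 4.47 to 8.71 times 1e+06 in the high ones. Rn45s level and depth therefore cannot be told apart in these sets. Cdkn1a had a log2 change of 2.17 in the high Rn45s libraries (limma adjusted p = 0.000905) and of 0.58 in the low ones. The low set has library 2 as its lone Neg Cre library, so its values are given as a description and speak neither for nor against the calls. Ccng1 had log2 changes of -0.94 and -1.11 in the high and low Rn45s libraries, Sesn1 of -0.72 and -0.62, Phlda3 of 1.38 and 1.29, Eda2r of 0.87 and 1.11, and Bax of 0.54 and 0.42, and all of these were called in the high set by limma. Zmat3 had log2 changes of 0.36 and 0.72 in the high and low sets and Bbc3 of 0.38 and 0.70, and neither was called in the high set (limma adjusted p = 0.162 and 0.167). Neg Cre library 2 also differed from all other libraries in the neutrophil genes S100a8 and S100a9, at 31.99 and 37.8 FPKM, against at most 2.55 and 3.86 FPKM elsewhere. The part of these neutrophil transcripts in its Cdkn1a level was not tested.

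**Figure D3:**
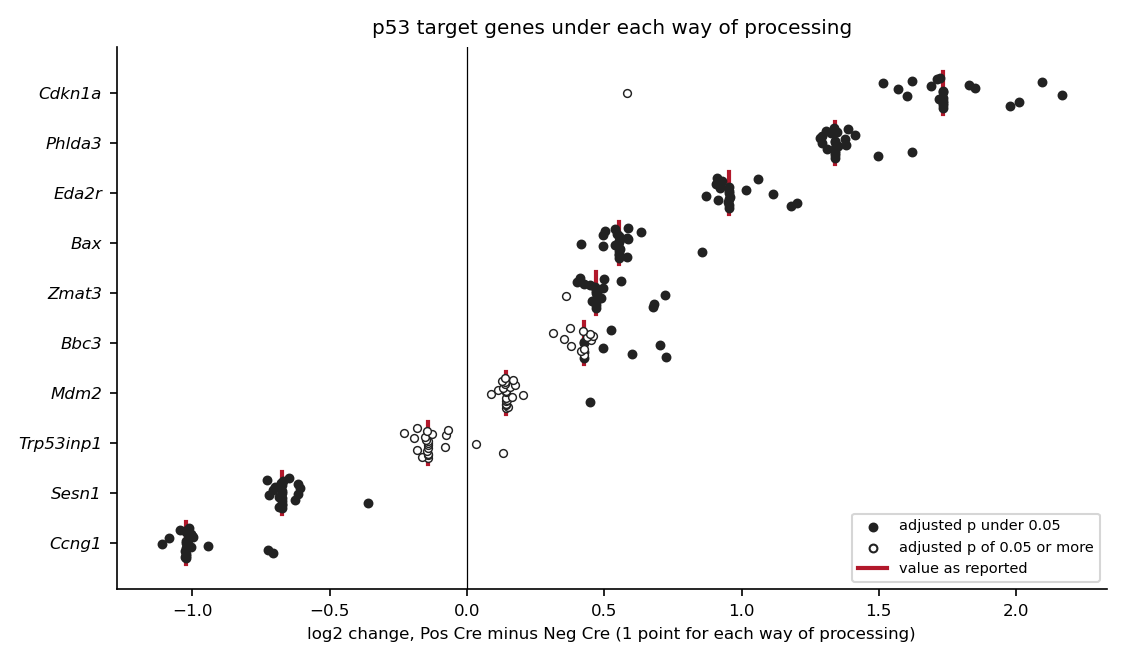
Log2 change, Pos Cre minus Neg Cre, of each p53 target gene under the reported processing (red bar) and under each other way of processing (points, filled where the limma adjusted p was under 0.05). Phlda3, Eda2r, Bax, Sesn1 and Ccng1 keep their call throughout, Bbc3 loses it in 12 of 20 and Trp53inp1 changes sign in 2 of 21.

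Beyond these 10 genes, 55 further p53 targets were listed by function, of which 41 passed the filter. Of these 41, 9 were called higher and 11 lower, beside 19.7% and 19.4% of all genes, and their median log2 change was -0.0041. Without Pos Cre library 3, 7 were lower, beside 1871 of all 11694 genes tested. With libraries scaled to the same summed FPKM 19 were higher and 3 lower. Under that scaling 5432 of all 11700 genes tested were higher and 1004 lower. Among 12 genes of cell cycle and feedback, 4 were tested, 1 was higher and 2 were lower. Gadd45a, a growth arrest gene, averaged 5.39 ± 1.36 FPKM in Pos Cre and 12.4 ± 2.53 FPKM in Neg Cre ventricles (SD, n = 4 each), a log2 change of -1.07 (limma adjusted p = 0.000576). Fbxw7, the substrate adaptor of a ubiquitin ligase that degrades cyclin E, fell by 1.00 on the log2 scale (limma adjusted p = 1.57e-05), and the kinase gene Plk2 rose by 0.47 (limma adjusted p = 0.000419). The noncoding RNA Trp53cor1, transcribed upstream of Cdkn1a, was under the filter, at 0.704 to 0.852 FPKM in Pos Cre and 0.0449 to 0.620 FPKM in Neg Cre libraries, and was not tested.

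Among 14 further apoptosis targets, 11 were tested, 2 were higher and 4 lower, beside 19.7% and 19.4% of all genes. Bid, whose cleaved product activates Bax, averaged 3.202 ± 0.638 FPKM in Pos Cre and 0.913 ± 0.402 FPKM in Neg Cre ventricles (SD, n = 4 each), a log2 change of 1.15 (limma adjusted p = 0.000386). Trp53i13 rose by 0.50 on the log2 scale (limma adjusted p = 0.00513). Siva1, a proapoptotic adaptor, fell by 0.64 (limma adjusted p = 0.00545), and Fas, the death receptor gene, fell by 0.32 (limma adjusted p = 0.0363), a call that was lost in 11 of 21 other ways of processing, 6 of them leaving out 1 library, with limma adjusted p of 0.0865 with a replicate block and 0.807 with scaling to the same sum (log2 change of Fas -0.0302). None of the 8 DNA repair targets was called by limma. None had an unadjusted limma p under 0.05 either, beside 5543 of all 11688 genes tested that did. Among these 8, Rps27l averaged 146.2 ± 9.07 FPKM in Pos Cre and 140.5 ± 21.9 FPKM in Neg Cre ventricles, and Rrm2b, a ribonucleotide reductase subunit, averaged 15.2 ± 1.72 FPKM in Pos Cre and 15.3 ± 1.54 FPKM in Neg Cre ventricles (SD, n = 4 each).

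Among 21 targets of metabolism, redox control or secretion, 18 were tested, 6 were higher and 5 lower, beside 19.7% and 19.4% of all genes. Gdf15, a secreted stress cytokine, had 35.1, 49.98, 64.5 and 54.5 FPKM in Pos Cre libraries, against 0.281, 0.752, 0.173 and 5.29 FPKM in Neg Cre libraries. No overlap was seen, although Neg Cre library 4 stood well above its group. The log2 change of Gdf15, 4.66 ± 0.46 (SE, limma adjusted p = 2.63e-05), was the highest of all genes tested. Gpx1, a glutathione peroxidase, averaged 198.8 ± 4.04 FPKM in Pos Cre and 76.7 ± 14.3 FPKM in Neg Cre ventricles (SD, n = 4 each), a log2 change of 1.38 (limma adjusted p = 9.75e-06). The matricellular gene Thbs1 rose by 0.92 on the log2 scale (limma adjusted p = 0.000808). The 5 genes that fell were Tigar, Dram1, Aldh4a1, Ak1 and Pltp, with log2 changes from -0.63 for Pltp to -0.30 for Dram1 (limma). The call of Dram1 was only just under the threshold (limma adjusted p = 0.04997).

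The gene of p53 itself, Trp53, had 6.22, 6.43, 6.97 and 6.81 FPKM in Pos Cre libraries, against 4.84, 7.04, 5.24 and 7.24 FPKM in Neg Cre libraries. The groups overlapped, and the log2 change of 0.12 ± 0.12 (SE) was not called (limma adjusted p = 0.481). Transcript level says nothing of the amount of p53 protein. Of 13 tested genes for p53 and its regulators, 1 was higher and 2 lower, beside 19.7% and 19.4% of all genes. The higher one was Rchy1, a ubiquitin ligase of p53 also known as Pirh2, with a log2 change of 0.36 (limma adjusted p = 0.00848). Rfwd2, the ubiquitin ligase also known as Cop1, fell by 0.23 on the log2 scale (limma adjusted p = 0.0303), and the phosphatase gene Ppm1d fell by 0.33 (limma adjusted p = 0.0482). Neither call was stable: that of Rfwd2 was lost in 9 of 21 other ways of processing, 5 of them leaving out 1 library, with a replicate block (limma adjusted p = 0.0882) and with a change of 0.0781 when libraries were scaled to the same sum. That of Ppm1d was lost in 12 of 20, 6 of them leaving out 1 library, with limma adjusted p of 0.0743 with a replicate block and 0.644 with libraries scaled to the same sum (log2 change -0.0709). Mdm4, the partner of Mdm2 that masks the activation domain of p53, was not called (log2 change -0.19, limma adjusted p = 0.18). The log2 ratio of Mdm2 to Mdm4 within a library averaged 2.57 ± 0.13 in Pos Cre and 2.19 ± 0.18 in Neg Cre libraries (SD, n = 4 each), a difference of 0.38. The exact two-sided permutation test over 70 assignments gave p = 0.0286, the smallest possible, and 0.0286 adjusted over the 2 ratios tested. That value is reached whenever groups of 4 do not overlap. Of all genes, 19.3% stood wholly higher and 18.7% wholly lower in Pos Cre libraries. Neither Mdm2 nor Mdm4 was called on its own.

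Among 16 tested genes of DNA damage signalling, 4 were higher and 3 lower, beside 19.7% and 19.4% of all genes, and the median log2 change was 0.05. Prkdc, the catalytic subunit of DNA-dependent protein kinase, averaged 6.87 ± 0.644 FPKM in Pos Cre and 2.94 ± 0.118 FPKM in Neg Cre ventricles (SD, n = 4 each), a log2 change of 1.00 (limma adjusted p = 1.3e-05). Rad50, which holds broken DNA ends together, rose by 0.88 on the log2 scale (limma adjusted p = 0.000537), and Xrcc6, the Ku70 subunit of the end-binding dimer, rose by 0.60 (limma adjusted p = 0.000477). Parp1, the sensor of strand breaks that builds poly(ADP-ribose), fell by 0.46 (limma adjusted p = 0.00564), but the call of Parp1 was lost when libraries were scaled to the same sum (log2 change -0.15, limma adjusted p = 0.285), and its log2 change was -0.20 in the low Rn45s libraries. The other called genes were Trp53bp1, with a log2 change of 0.34 (limma adjusted p = 0.0128), and Atr and Nbn. The kinase gene Atr had a log2 change of -0.36 (limma adjusted p = 0.00582) and Nbn of -0.31 (limma adjusted p = 0.0206). The kinase genes Atm and Chek2 were tested and not called. Atm still lay lower in every Pos Cre library, at 3.49 to 4.01 FPKM, against 4.16 to 4.70 FPKM in Neg Cre libraries (limma adjusted p = 0.115).

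Genes that p53 lowers through p21 and the DREAM repressor complex, mostly genes of DNA replication and mitosis, were scarce, and 11 of 20 were under the filter. Of the 9 tested, 1 was called and it was higher, beside 19.7% of all genes called higher and 19.4% called lower. It was Mcm3, a subunit of the replicative helicase, with a log2 change of 0.30 (limma adjusted p = 0.0283). The call of Mcm3 was lost in 7 of 20 other ways of processing, 4 of them leaving out 1 library, and with a replicate block (limma adjusted p = 0.0739 for Mcm3). Mcm2, another subunit of that helicase, averaged 3.03 ± 0.936 FPKM in Pos Cre and 3.03 ± 0.744 FPKM in Neg Cre ventricles (SD, n = 4 each). Among 4 tested CDK inhibitor genes related to Cdkn1a in function, Cdkn1c, which encodes p57, averaged 8.61 ± 1.54 FPKM in Pos Cre and 14.9 ± 2.76 FPKM in Neg Cre ventricles (SD, n = 4 each), a log2 change of -0.73 (limma adjusted p = 0.00258). Cdkn2d, which encodes an inhibitor of the INK4 family, rose by 0.31 on the log2 scale (limma adjusted p = 0.0111).

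The BCL-2 family, to which Bax and Bbc3 belong, had 14 tested genes apart from these, of which 7 were higher and 2 lower, beside 19.7% and 19.4% of all genes, with a median log2 change of 0.38, beside -0.01 over all genes. Bcl2, the founding inhibitor of apoptosis, had 10.7, 11.2, 10.9 and 8.41 FPKM in Pos Cre libraries, against 3.59, 3.39, 4.29 and 4.10 FPKM in Neg Cre libraries. The groups did not overlap, and the log2 change of Bcl2 was 1.22 ± 0.11 (SE, limma adjusted p = 1.33e-05). Bok, a relative of Bax, rose by 1.20 on the log2 scale (limma adjusted p = 0.000288), and Bcl2l11, which encodes the BH3-only protein Bim, fell by 0.70 (limma adjusted p = 0.00252). The log2 ratio of Bax to Bcl2 was 0.96, 0.90, 1.04 and 1.59 in Pos Cre libraries, against 2.02, 2.38, 1.62 and 1.81 in Neg Cre libraries. It was lower in every Pos Cre library, since Bcl2 differed by more than Bax, and the mean difference was -0.83 (exact two-sided permutation p = 0.0286, the smallest possible, and 0.0286 adjusted over the 2 ratios). Such a separation, wholly lower in Pos Cre libraries, was also seen for 18.7% of all genes.

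**Figure D4:**
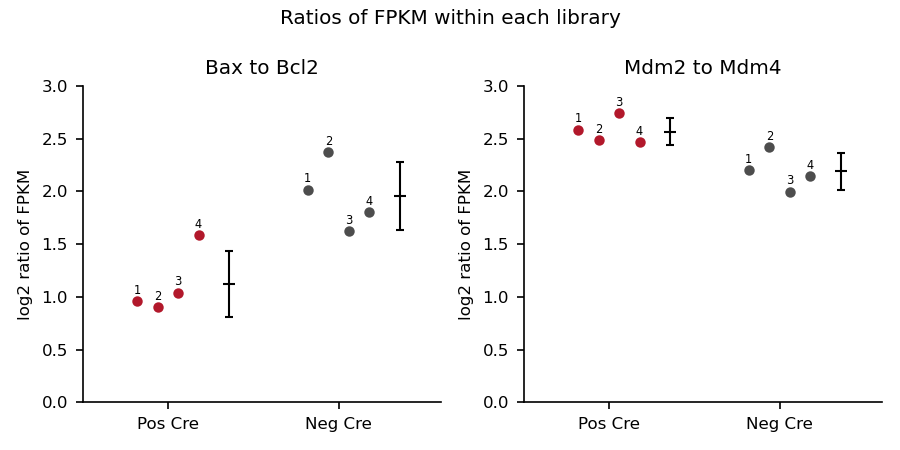
Log2 ratio of FPKM of Bax to Bcl2 (left) and of Mdm2 to Mdm4 (right) in the 4 Pos Cre libraries (red) and the 4 Neg Cre libraries (grey), with replicate numbers, mean and SD. The Pos Cre libraries lie wholly below the Neg Cre libraries for Bax to Bcl2 and wholly above them for Mdm2 to Mdm4.

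Of 12 tested paralogs and partners of the 10 genes, 2 were higher and 1 lower, beside 19.7% and 19.4% of all genes. Ccni, the cyclin I gene related to Ccng1, averaged 71.1 ± 6.21 FPKM in Pos Cre and 42.5 ± 5.74 FPKM in Neg Cre ventricles (SD, n = 4 each), a log2 change of 0.74 (limma adjusted p = 0.000411), opposite in sign to that of Ccng1. Sesn3 rose by 0.53 on the log2 scale (limma adjusted p = 0.00536), opposite in sign to its paralog Sesn1. Trp53inp2, a paralog of Trp53inp1, fell by 0.27 (limma adjusted p = 0.0417), a call of Trp53inp2 that was lost in 13 of 21 other ways of processing, 6 of them leaving out 1 library, with a change of 0.0436 when libraries were scaled to the same sum and a limma adjusted p of 0.0581 with a replicate block. Among the genes named from these lists, the calls of Sesn3 and Cdkn2d were also lost in the high Rn45s libraries alone and that of Siva1 with scaling to the same sum.

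**Figure D5:**
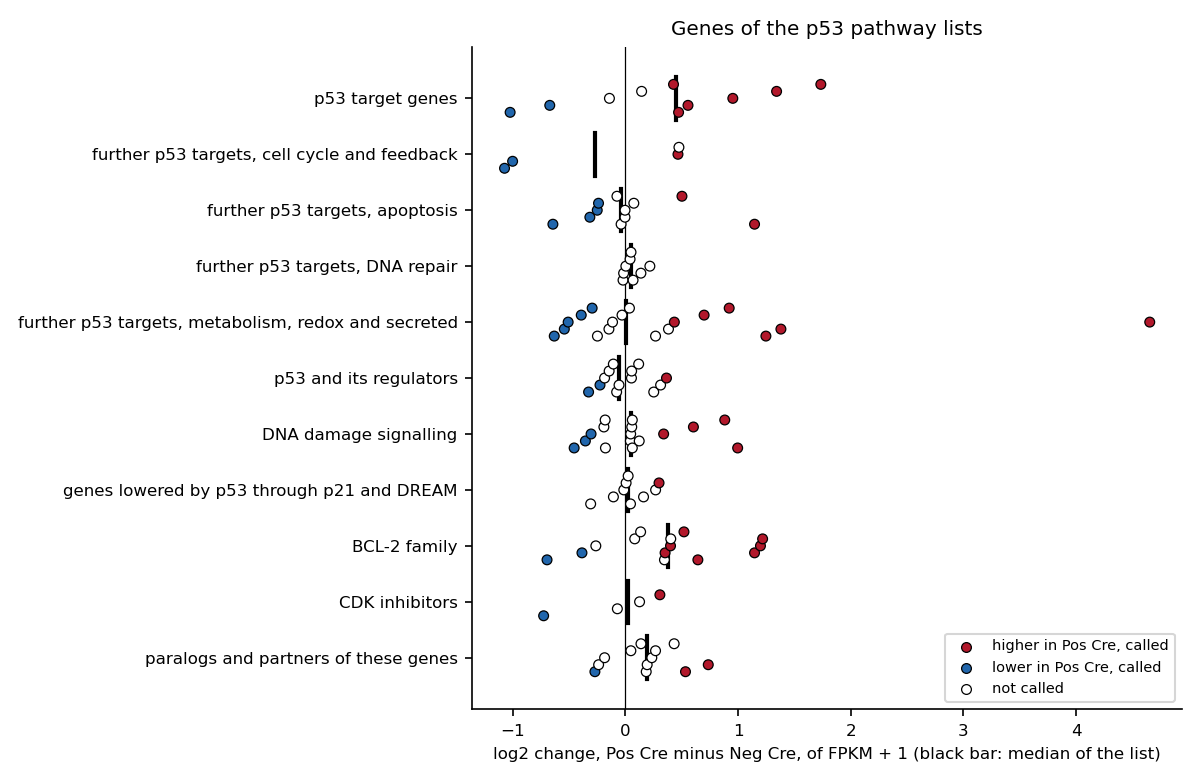
Log2 change of FPKM + 1, Pos Cre minus Neg Cre, of each tested gene of the p53 pathway lists (points, filled red or blue where called), with the median of each list as a black bar. The median is 0.45 for the p53 target genes and 0.38 for the BCL-2 family, and Gdf15 lies farthest right at 4.66.

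The labels and the tissue were checked in the same libraries. Med13 averaged 8.13 ± 0.554 FPKM in Pos Cre and 12.0 ± 2.23 FPKM in Neg Cre ventricles (SD, n = 4 each), with a log2 change of -0.50 (limma adjusted p = 0.00612), a call that was lost when libraries were scaled to the same sum. Med13l averaged 2.52 ± 0.113 FPKM in Pos Cre and 4.92 ± 0.814 FPKM in Neg Cre ventricles, with a log2 change of -0.74 (limma adjusted p = 0.000318). Esr1, part of which tamoxifen-regulated Cre fusions carry, stood at 5.78 to 17.7 FPKM in Pos Cre and 0.273 to 0.969 FPKM in Neg Cre libraries. The marker counts that follow stand beside 19.7% of all genes called higher and 19.4% called lower. Of 8 cardiomyocyte markers 7 were lower, and the summed level of the 8 was 16750 to 17940 FPKM in Pos Cre and 48010 to 51950 FPKM in Neg Cre libraries. The marker not called was Actn2, which averaged 715.6 FPKM in Pos Cre and 722.4 FPKM in Neg Cre ventricles, a log2 change of -0.0053. Of 9 fibroblast markers 6 were higher and 1 lower, with sums of 1010 to 1164 FPKM in Pos Cre and 661.8 to 790.0 FPKM in Neg Cre libraries. Of 7 smooth muscle and pericyte markers 3 were higher, with sums of 907.7 to 1355 FPKM in Pos Cre and 438.8 to 582.7 FPKM in Neg Cre libraries. Acta2 alone stood at 597.6 to 1006 FPKM in Pos Cre and 149.2 to 252.9 FPKM in Neg Cre libraries. Acta2, Tagln and Cnn1 were the markers called, while Myh11, Rgs5, Pdgfrb and Notch3 were not, so the sum does not stand for the whole list. Of 7 endothelial markers 3 were lower, with sums of 808.4 to 945.1 FPKM in Pos Cre and 1255 to 1370 FPKM in Neg Cre libraries. Most of that sum was Fabp4, at 544.1 to 655.5 FPKM in Pos Cre and 907.1 to 1044 FPKM in Neg Cre libraries. Cdh5 and Kdr were also called, while Pecam1, Tie1, Egfl7 and Cldn5 were not, so this sum does not stand for the whole list either. Of 8 macrophage and monocyte markers 4 were lower, with sums of 73.5 to 96.6 FPKM in Pos Cre and 119.3 to 134.7 FPKM in Neg Cre libraries. Lymphocyte and neutrophil markers summed to 1.94 to 6.20 FPKM in Pos Cre and 2.75 to 72.4 FPKM in Neg Cre libraries, and the lymphocyte genes among them stayed under 1 FPKM. The part of these shifts in the changes of the p53 targets was not tested.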

How the data were processed

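RNA of 8 ventricle lysates was sequenced with a stranded kit that removes ribosomal RNA, per the labels' protocols. The authors deposited 1 FPKM value per gene and library, and the submitters' processing notes name Bowtie2 2.2.6, Cufflinks and mm10. Whether counting used strand is not stated there; this bears on overlapping genes. Depth is not in the table and was estimated, from the value that 1 fragment takes, at 4.47 to 23.4 times 1e+06 fragments, so a count of 0 allows up to 0.064 to 0.336 FPKM for a transcript of 2 kb, for counting error only. Groups follow the genotype label. log2(FPKM + 1) was fitted with limma 3.58.1 in R 4.3.3 (variance trend, Benjamini-Hochberg adjustment); the fit was tested on simulated data. This scale understates changes of scarce genes. Nothing says whether replicates are separate animals, so p-values measure the spread between these samples. The 10 genes, the lists and the naming rule (up to 4 called genes with the largest change per list, or the 2 most abundant) were chosen with earlier results of these data known; the other genes named, such as Trp53, Mdm4, Trp53cor1, Atm and Chek2 and those of a list given whole, are outside that rule. The result of 1 gene under the rule is not reported here. Alternatives changed the pseudocount, filter, scaling, model and libraries. Python 3.11 drew the figures.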

Additional observations from a re-analysis of the deposited data

Results flagged for a closer look

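Some libraries stood far from the other 3 of their group, by a gap to the nearest that exceeded Dixon's 95% critical value for the group's range, which chance gives in about 5% of groups of 4. Eda2r had 3.39 FPKM in Neg Cre library 4, against 2.17 to 2.34 FPKM in the rest of that group. Gdf15, at 5.29 FPKM, and Esr1, at 0.969 FPKM, were also highest in Neg Cre library 4. Med13l stood at 6.13 FPKM in Neg Cre library 3, Rchy1 at 11.6 FPKM in Neg Cre library 1 and Rrm2b at 13.05 FPKM in Neg Cre library 2, the last 2 of them low. In the Pos Cre group Rad50 stood high at 14.3 FPKM in library 1, and Plk2 and Bok stood high at 33.0 and 8.86 FPKM in library 3. In all, 9 values were singled out among 90 groups of 4.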

How the results depend on the processing

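Across 21 other ways of processing (20 for genes under the stricter filter), Ccng1, Sesn1, Bax, Eda2r and Phlda3 kept their direction and their call. Cdkn1a lost its call in the low Rn45s libraries alone (limma adjusted p = 0.0514), a set with a lone Neg Cre library that is assumed to vary like the others, and Zmat3 in the high ones (0.162). Of the p53 targets, 3 were called higher with a filter at a mean of 5 FPKM, which leaves out Bbc3, Eda2r and Zmat3. Leaving out 1 library at a time gave 5 to 6 genes higher and 2 lower; the call lost was that of Bbc3. Averaging Neg Cre 1 and 2, whose library names share a number, was chosen after seeing the data and gave 5 higher and 2 lower. Scaling to the same sum called 5432 genes higher and 1004 lower, 84.4% of calls higher against 50.4%, with 19 further p53 targets higher and 3 lower, and turned the sign of Trp53inp1 (0.13), Rfwd2 (0.0781), Rrm2b (0.28), Mcm2 (0.22) and Trp53inp2 (0.0436). Libraries with low Rn45s alone turned Trp53inp1 (0.0321), Rrm2b (0.0764) and Mcm2 (0.20) and gave 0.18 for the log2 ratio of Mdm2 to Mdm4. Libraries with high Rn45s alone gave 7 further targets lower and turned Rrm2b (0.0323), as did Rn45s as a term (0.0481). Without single libraries, further targets lower ranged from 7 to 9, all genes called from 1851 to 2345 higher and 1855 to 2306 lower, the log2 ratio of Bax to Bcl2 from -0.99 to -0.69 and that of Mdm2 to Mdm4 from 0.31 to 0.45, with exact permutation p up to 0.0571. Without single libraries, uncalled log2 changes that crossed 0 ranged from -0.0875 to 0.0468 for Rrm2b, -0.0217 to 0.155 for Rps27l and -0.144 to 0.135 for Mcm2. The cause was not tested. Deviations of equal replicate numbers correlated at -0.162 to -0.0776, so these numbers, taken from the sample titles, gave no sign of pairing. The library names carry partly other numbers, and pairing by those was not tested. A replicate block gave 5 p53 targets higher (Bbc3 lost, limma adjusted p = 0.0926) and 7 further targets lower. By the fragment estimate, depth limits Bbc3 most.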
